A study of Mus musculus with 10 samples.

Results

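The comparison set βTC6 cells, a mouse insulinoma line, against whole embryonic pancreas at E15.5, with 2 arrays in each group, so that it used 4 of the 10 arrays of the series. βTC6 cells arose from a pancreatic tumour of a mouse that carried the SV40 large T antigen under an insulin promoter, which makes the group a single transformed line of β-cell origin; they were grown in DMEM with 15% FCS and received no treatment. The pancreas samples were untreated whole tissue, and the labels give no strain, sex, litter or pool size. Islets, called whole islet tissue in the labels with no age, also had 2 arrays and are given beside the main values where they help to read them, and the remaining 4 arrays hold differentiating ES cells that are not described here. Groups were taken from the sample labels. Arrays of a group carry the name of biological replicates, but no label ties them to different cultures or dissections. The p-values therefore rest on array-to-array spread that may be technical.

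β cells make, store and release peptide hormone. Prohormones are cleaved and amidated on the way into dense-core granules, the granules fuse with the membrane when calcium enters, and much of this apparatus is shared with neurons. At E15.5 the pancreas is mostly a branching epithelium that is turning into acinar tissue, with scattered endocrine cells, ducts, a thick mesenchyme and a growing bed of vessels. A line of a single cell type and an organ of many cell types therefore differ both in what each cell makes and in which cells are there, and in bulk RNA fewer cells of a type and less RNA per cell cannot be told apart.

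RNA was measured on 1-colour CodeLink arrays with 34967 discovery probes. A level is the background-subtracted spot intensity divided by the median over these probes on its array, so that 1 is the median probe, and levels under 0.27 were set to 0.27. Levels of different probes are not comparable with each other. Of the discovery probes, 23070 and 23840 were above background on the βTC6 arrays and 25993 and 25869 on the pancreas arrays, with 93 to 114 saturated. The 2 arrays of a group correlated with r = 0.989 for βTC6 and r = 0.996 for pancreas across 20685 probes, which are not independent of one another. The slides of the 2 groups come from separate ranges, and in every value given here the slide batch cannot be told apart from the tissue.

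A probe was tested if either group had it above background on both of its arrays, which left 26169 probes, 14910 of them the reported probe of a named gene. Of the 26169, 2416 were at background on both βTC6 arrays and 650 on both pancreas arrays, so their direction followed from the filter. By limma, with 1 mean per group, 11668 probes were higher in βTC6 cells and 6714 were lower at an adjusted p under 0.05, which is 44.6% and 25.7% of those tested. Since most probes differed, a count within a gene list has to be read against these shares. Of the probes called, 63.5% were higher in βTC6, but the median log2 difference over all tested probes was itself 0.25, and after quantile normalization that median was 0.06 and the share was 52.8%, with 9468 higher and 8473 lower. Small differences therefore depend on the scaling. Cdkn2a, Nts and Pdx1 in pancreas, and Kdr, Spink1, Gp2, Cela1, Doc2b, Mafa, Trh, Notch4, Wt1 and Fgfr3 in βTC6 cells, were above background on 1 of the 2 arrays, so that their folds rest partly on values at or near background. A difference of at least 2-fold was seen for 5789 higher and 3642 lower probes. Fold is written as at least a value where the dimmer group was at background on both arrays, or where the brighter group was saturated on both.

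Most markers of β cells and those of the exocrine, stromal and vessel cells of the organ went with the labels. Each of the 5 measured β-cell markers (Pdx1, Nkx6-1, Slc2a2, Slc30a8 and G6pc2) was above background on both βTC6 arrays, and their summed level was 297 and 325 in βTC6 cells, 48.0 and 45.8 in pancreas and 424 and 367 in islets. In βTC6 cells the sum rested mostly on Nkx6-1, Slc30a8 and G6pc2. Slc2a2 did not differ from pancreas past the threshold (limma adjusted p = 0.884), and the Pdx1 probe was dim. No probe was named for Ins1, Ins2 or Iapp alone, so insulin is not analysed here. The summed level of 6 acinar markers was 3.09 and 2.95 in βTC6 cells against 800 and 777 in pancreas. For 6 mesenchymal markers it was 4.05 and 4.08 against 479 and 477, and for 5 endothelial markers it was 1.47 and 1.62 against 55.2 and 57.5. Cpa1, Amy2a5, Krt19, Sox9, Col1a1, Col3a1, Dcn, Postn, Pecam1, Cdh5, Tie1, Emcn, Ptprc and Tyrobp were at background on both βTC6 arrays. The sum of 2 Schwann and neural crest markers was 8.10 and 7.88 against 10.2 and 10.47, but Sox10 was lower and Foxd3 higher in βTC6 cells. The sum of 3 mesothelial markers was 1.21 and 0.866 against 1.43 and 1.42. It was made up largely of background, since Upk3b and Msln were at background on both βTC6 arrays and each above it on only 1 pancreas array. Neither sum gives a clear direction. The pancreas arrays held 6 of 6 acinar, 3 of 3 duct, 6 of 6 mesenchymal and 5 of 5 endothelial markers above background. In contrast, the islet arrays had acinar marker sums of 1542 and 1311, so acinar RNA was strong in them.

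Differences by gene list are set out in the plot of all 35 lists. Granule and neuronal genes had the highest medians in βTC6 cells, and acinar enzymes and matrix genes the lowest.

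**Figure D1:**
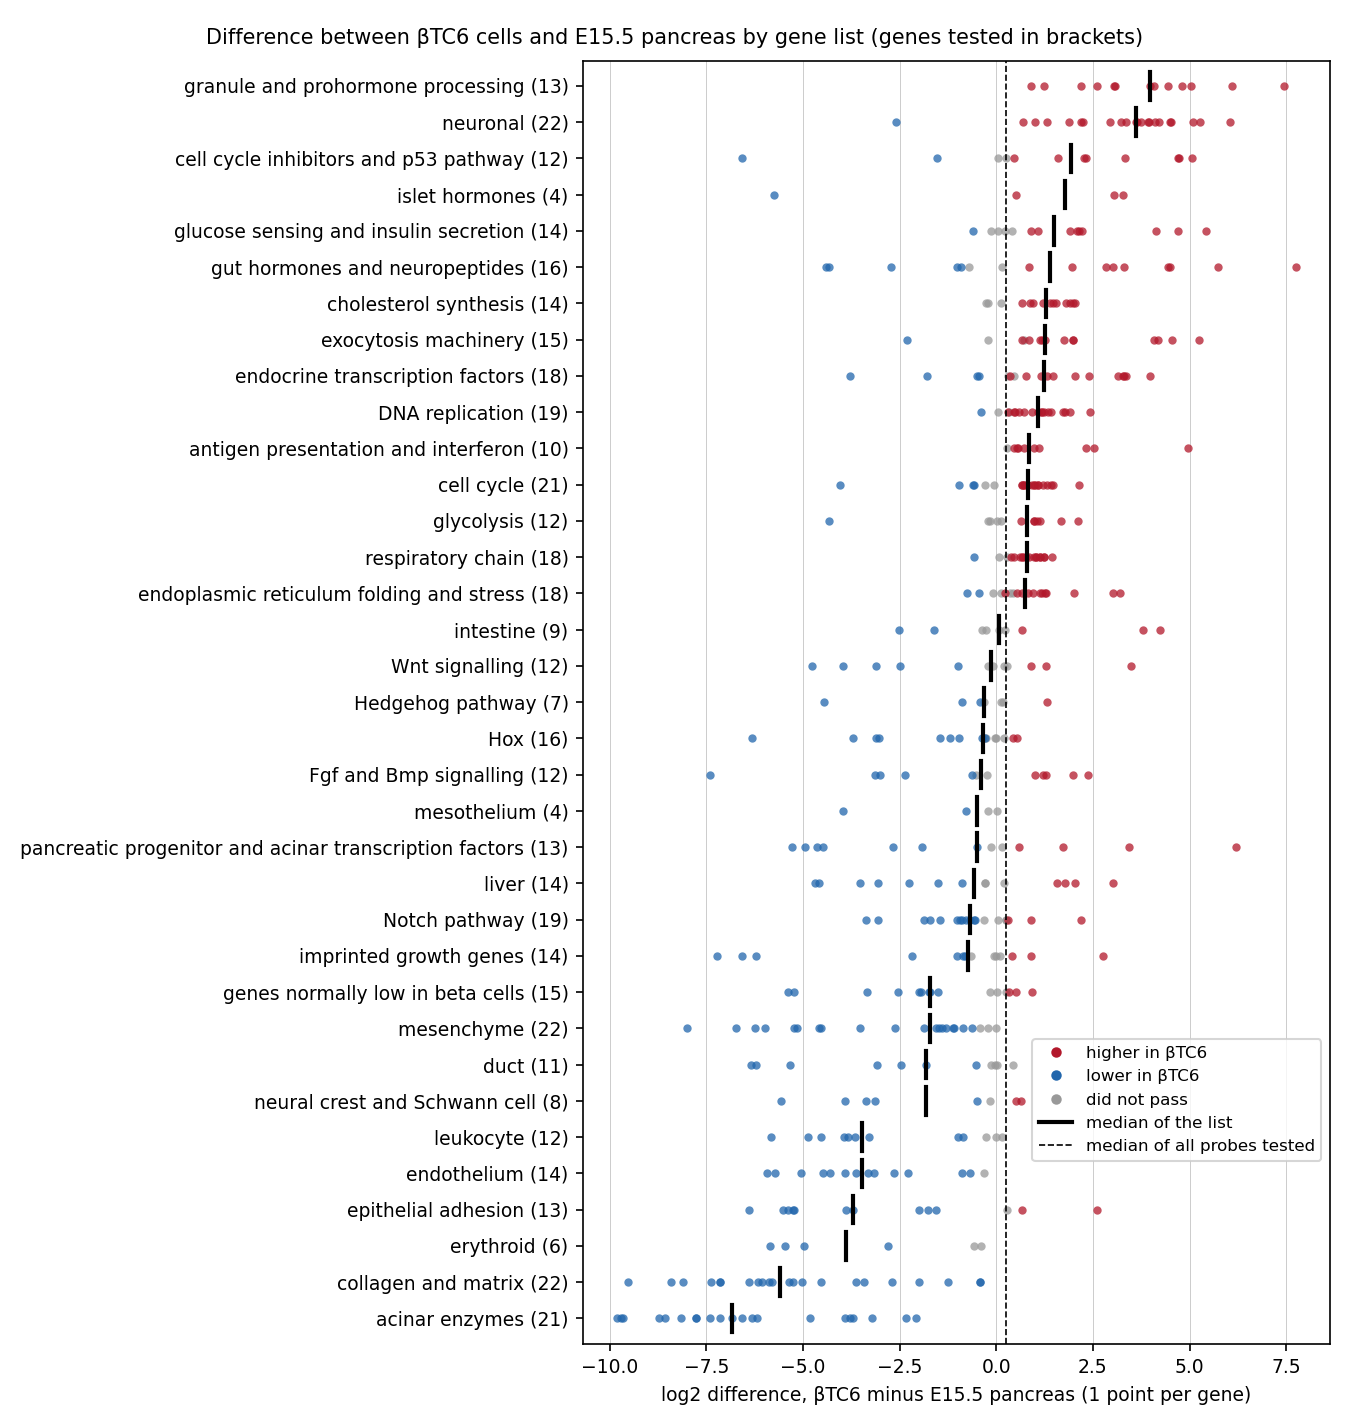
Log2 difference of βTC6 cells minus E15.5 pancreas (x axis) for each tested gene of 35 lists (y axis, with the number of genes tested). Each point is 1 gene, red if higher, blue if lower and grey if it did not pass, black bars are list medians and the dashed line is the median of all tested probes at 0.25. List medians run from -6.83 for acinar enzymes to 3.97 for granule and prohormone processing.

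Genes of the dense-core granule were uniformly higher in βTC6 cells. Of 13 tested, 13 were higher and none lower, with a median log2 difference of 3.97 (3.15 after quantile normalization) against 0.25 over all probes. Resp18, an endocrine granule protein, was at 221 and 250 in βTC6 cells and at 1.23 and 1.49 in pancreas, a 174-fold difference (log2 7.44 ± 0.12 SE, adjusted p = 8.44e-13). Vgf, a granin-like precursor of neuropeptides, was at 144 and 124 against 1.96 and 1.97 (68.0-fold, adjusted p = 1.50e-11). Scg3, which helps to sort cargo into granules, was at 257 and 243 against 8.63 and 9.15 (28.1-fold, adjusted p = 4.92e-11). Both βTC6 arrays lay far above both pancreas arrays for each of these. Chga, chromogranin A, was at 250 and 228 against 15.1 and 15.4 (15.7-fold, adjusted p = 6.27e-12). The other 9 were 1.88-fold (Cpd) to 32.9-fold (Ptprn) higher, among them the prohormone convertase Pcsk1 at 8.32-fold and Cpe, a carboxypeptidase that trims cleaved hormones and was saturated in βTC6 cells, at least 4.60-fold. Against islets the same 13 genes split, with 5 higher and 5 lower in βTC6 cells by limma, where 42.0% of 26166 probes were higher and 26.8% lower. Vgf stood out in that comparison, with islet levels of 6.38 and 6.75.

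Hormone and peptide genes did not move together. Sst, somatostatin of δ cells, was at 211 and 229 in βTC6 cells and 26.2 and 26.6 in pancreas (8.33-fold, adjusted p = 8.67e-11). Ppy, pancreatic polypeptide, was at 55.7 and 70.1 against 6.41 and 6.43 (9.73-fold, adjusted p = 6.77e-10). The β-cell line thus carried RNA for hormones of other islet cell types, on both arrays. Gcg, glucagon of α cells, was at 119 and 157 against 93.2 and 97.3, a 1.44-fold difference (adjusted p = 0.00254) whose direction turned after quantile normalization (log2 -0.32, adjusted p = 0.0137). Ghrl, ghrelin, which marks a separate endocrine cell type of the fetal pancreas, was at 0.27 and 0.527 against 21.4 and 19.03 and was lower in βTC6 cells (adjusted p = 3.01e-09), where it was above background on 1 array, so that its fitted 53.4-fold difference depends on the floor. Each of these 4 hormones was lower in βTC6 cells than in islets.

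Among 16 gut hormones and neuropeptides, 9 were higher in βTC6 cells, 5 were lower and 2 did not pass. Cck, cholecystokinin, was at 356 and 376 in βTC6 cells, both saturated, and at 6.89 and 6.81 in pancreas, at least a 53.4-fold difference (adjusted p = 4.02e-12). Sct, secretin, was measured on 1 βTC6 array, where it was saturated at 401, and was at 1.85 and 1.88 in pancreas (at least 215-fold, adjusted p = 3.66e-12). A gene with 1 measured array in a group, as here, is tested on the assumption that this array varies like those of the other groups. Npy, neuropeptide Y, was saturated at 268 and 330 against 13.1 and 14.2 (at least 21.8-fold, adjusted p = 3.18e-11). In islets Cck was at 0.317 and 0.27 and Sct at 0.27 on both arrays. Cartpt, a regulated neuropeptide, was 8.08-fold higher (57.1 and 51.2 against 6.84 and 6.54, adjusted p = 1.19e-10). Gal, galanin, Tac1, the precursor of substance P, Nts, neurotensin, Gast, gastrin, and Nmb were also higher, by 1.79-fold (Nmb) to 22.4-fold (Gal). The lower genes were Pyy, peptide YY (5.07 and 7.22 against 133 and 124, 21.2-fold), Penk, proenkephalin (19.9-fold), Gip (6.61-fold), and Vip and Grp, which were at background in βTC6 cells. Trh was at 0.303 and 0.677 against 0.625 and 0.876 (adjusted p = 0.0727), and without βTC6 replicate 2 it passed as lower (log2 -1.29). Nmu was at 0.808 and 0.690 against 0.650 and 0.690 (adjusted p = 0.375).

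**Figure D2:**
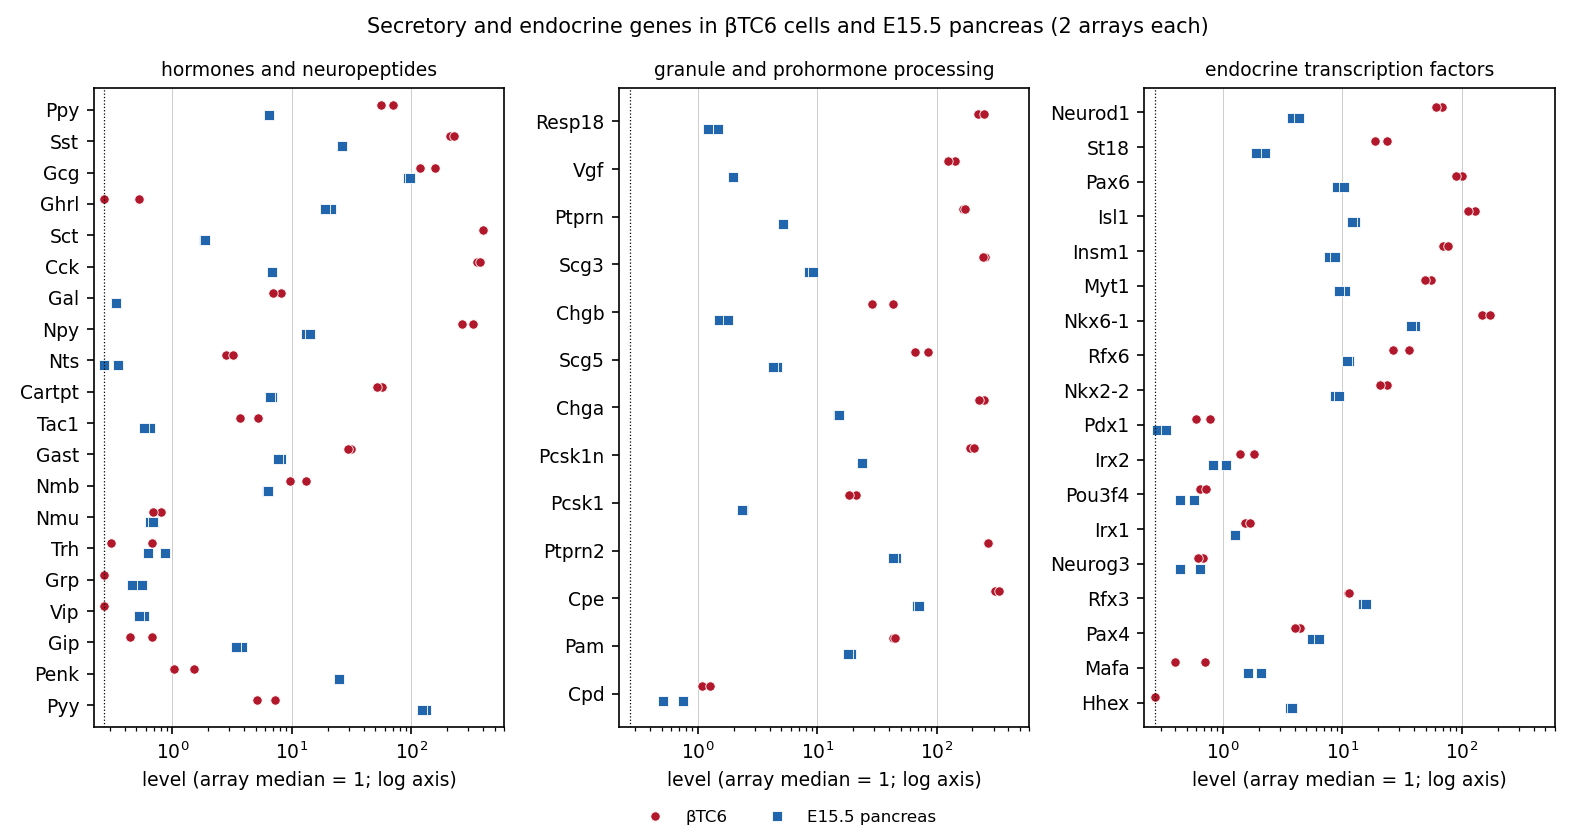
Levels (x axis, log, array median 1) of hormone, granule and endocrine transcription factor genes (y axis, ordered by difference) on the 2 βTC6 arrays (red circles) and the 2 E15.5 pancreas arrays (blue squares); the dotted line is the floor of 0.27. All 13 granule genes lie higher on both βTC6 arrays, whereas Pyy, Penk, Gip, Ghrl, Hhex and Mafa lie lower.

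Promoters of these secretory genes were searched for the full cAMP response element TGACGTCA, a palindrome that reads the same on both strands. Within the 250 bases before the start in the RefSeq promoter table (GRCm38.p6), 4 of 29 listed hormone, peptide and granule genes with an entry held it, against 1.77% of all 27025 genes of that table. The 4 are shown as 60-base windows, 5′ to 3′ on the strand of the gene, with the element in capitals. A match is a description of the letters, and binding was not measured.
Sst, chr16:23890859-23890918, minus strand: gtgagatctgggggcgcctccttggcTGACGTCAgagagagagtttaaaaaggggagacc
Cartpt, chr13:99900762-99900821, minus strand: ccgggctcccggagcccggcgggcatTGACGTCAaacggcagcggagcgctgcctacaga
Chgb, chr2:132781544-132781603, plus strand: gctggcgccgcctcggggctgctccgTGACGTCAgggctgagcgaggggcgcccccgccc
Pcsk1, chr13:75089753-75089812, plus strand: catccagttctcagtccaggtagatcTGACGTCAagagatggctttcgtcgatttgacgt
Each of these 4 genes was higher in βTC6 cells, by 8.33-fold (Sst), 8.08-fold (Cartpt), 21.6-fold (Chgb) and 8.32-fold (Pcsk1). In the lists searched, 3 of 4 islet hormones, 9 of 16 gut hormones and neuropeptides and 13 of 13 granule genes were higher. Many genes without the element were therefore higher too.

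The exocytosis machinery followed the granule in most of its members. Of 15 genes tested, 12 were higher, 1 was lower and 2 did not pass (median log2 difference 1.27). Syt4, a synaptotagmin, was at 14.7 and 13.2 in βTC6 cells and 0.390 and 0.346 in pancreas (38.0-fold, adjusted p = 7.30e-11). Snap25, a SNARE protein of vesicle fusion, was at 87.9 and 121 against 5.50 and 5.92 (18.1-fold, adjusted p = 1.28e-10). Rab3a, a small GTPase on granules, was at 35.1 and 36.1 against 1.97 and 2.27 (16.8-fold, adjusted p = 4.85e-11). Rims2, a scaffold of the release site, went the other way on its brightest probe, at 8.62 and 8.23 against 42.8 and 40.2 (4.92-fold lower, adjusted p = 2.20e-09), but its probes were called in opposite directions. The complexin Cplx2 (9.96 and 17.4 against 7.27 and 8.93, adjusted p = 0.0819) passed as higher only without βTC6 replicate 1 (log2 1.11), and the calcium sensor Doc2b (0.450 and 0.336 against 0.413 and 0.499) had an adjusted p of 0.402.

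Glucose sensing genes showed a mixed picture in which several of the named components of the β-cell stimulus chain did not pass. Of 14, 9 were higher, 1 was lower and 4 did not pass. Slc30a8, which carries zinc into insulin granules, was at 98.7 and 95.6 against 2.24 and 2.28 (43.0-fold, adjusted p = 3.92e-12). G6pc2, the islet glucose-6-phosphatase subunit, was at 47.8 and 51.9 against 1.83 and 2.00 (26.1-fold, adjusted p = 2.44e-11). Glp1r, the incretin receptor, was at 4.25 and 5.25 and at background in pancreas (at least 17.5-fold, adjusted p = 5.38e-10). These genes are typical of β cells. Cacna1c, a calcium channel subunit, was 3.73-fold higher on its brightest probe (adjusted p = 8.06e-08) but did not pass when its probes were summarised by their median (log2 1.03, adjusted p = 0.0766). In contrast, Slc2a2, the glucose transporter Glut2, was at 2.56 and 4.68 in βTC6 cells and 3.05 and 3.71 in pancreas (log2 0.04 ± 0.22 SE, adjusted p = 0.884), while islets read 72.6 and 73.5. Its call depended on single arrays, with a log2 difference of 0.47 without βTC6 replicate 1 and -0.40 without replicate 2, each past the threshold. Abcc8 (11.4 and 11.7 against 13.2 and 12.2, adjusted p = 0.186) and Kcnj11 (0.451 and 0.677 against 0.360 and 0.477, adjusted p = 0.151), the subunits of the ATP-sensitive potassium channel, were below their islet levels of 36.3 and 36.0 and of 0.812 and 1.20. Abcc8 was called lower than in pancreas after quantile normalization (log2 -0.58), and Kcnj11 passed as higher without βTC6 replicate 1 (log2 0.71). Cacna1d, another calcium channel subunit, was at 15.4 and 11.5 against 11.4 on both arrays (adjusted p = 0.158) and passed without βTC6 replicate 2 (log2 0.43). Ucn3, which in mouse marks mature β cells, was at 1.49 and 1.53 in βTC6 cells, 0.862 and 0.754 in pancreas and 189 and 180 in islets, and Glud1, glutamate dehydrogenase, was the 1 lower member (1.50-fold).

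Endocrine transcription factors were mostly higher in βTC6 cells, with 12 of 18 higher, 4 lower and 2 that did not pass. Neurod1, a bHLH factor downstream of Ngn3, was at 68.7 and 60.7 in βTC6 cells and 3.81 and 4.37 in pancreas (15.8-fold, adjusted p = 3.84e-11). Pax6 was at 101 and 89.9 against 8.99 and 10.3 (9.90-fold, adjusted p = 1.50e-10). Isl1 was at 129 and 112 against 12.7 and 12.1 (9.70-fold, adjusted p = 1.19e-10). These factors act in all islet endocrine cells, and the βTC6 arrays were above the pancreas arrays without overlap. Nkx6-1, restricted to β cells among adult islet cells, was at 147 and 172 against 40.6 and 37.5 (4.08-fold, adjusted p = 5.70e-07). The Pdx1 probe was dim throughout, at 0.776 and 0.598 in βTC6 cells, 0.281 and 0.331 in pancreas and 0.524 and 0.482 in islets (2.23-fold, adjusted p = 0.000155), and had no difference left at a floor of 1. Neurog3 (Ngn3), the factor of endocrine precursors, was at 0.687 and 0.615 against 0.441 and 0.637 (adjusted p = 0.241), and Pou3f4 at 0.646 and 0.727 against 0.577 and 0.434 (adjusted p = 0.111). Both probes were dim in both groups, under the array median, so these values do not show that the RNA was equal. The 4 lower factors were Hhex, which marks δ cells among islet cells and was at background in βTC6 cells against 3.66 and 3.75 in pancreas (at least 11.8-fold, adjusted p = 5.32e-10), Mafa, the regulator of mature β cells, Pax4 and Rfx3. Mafa was at 0.40 and 0.707 in βTC6 cells, 1.62 and 2.07 in pancreas and 5.54 and 4.88 in islets (3.45-fold lower than in pancreas, adjusted p = 4.15e-05). Pax4 and Rfx3 were lower by 1.42-fold and 1.36-fold, and the probes of Rfx3 were called in opposite directions.

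Neuronal genes were higher in βTC6 cells nearly without exception, 21 of 22, with a median log2 difference of 3.62. Nefm, a neurofilament subunit, was at 43.9 and 42.5 in βTC6 cells and 1.14 and 1.09 in pancreas (38.7-fold, adjusted p = 7.39e-12). Astn1, a neuronal adhesion protein, was at 39.6 and 32.6 against 1.00 and 1.10 (34.2-fold, adjusted p = 1.48e-11). Syp, synaptophysin of synaptic-like vesicles, was at 136 and 143 against 5.77 and 6.33 (23.1-fold, adjusted p = 1.91e-11). Uchl1, a deubiquitinase abundant in neurons and endocrine cells, was 15.4-fold higher (184 and 192 against 12.2 on both arrays, adjusted p = 9.32e-12). Against islets 18 of the 22 were higher in βTC6 cells and 3 lower, where 42.0% of all probes were higher and 26.8% lower. For Nefm and Astn1 the islet levels (0.978 and 0.970, and 0.886 and 0.864) were as low as those of the pancreas. Sncg, γ-synuclein, was the exception, at background in βTC6 cells and at 1.58 and 1.69 in pancreas (at least 5.20-fold lower, adjusted p = 9.29e-09). Stmn2 was 1.62-fold higher (6.38 and 12.98 against 5.79 and 5.44) but did not pass after quantile normalization (log2 0.38, adjusted p = 0.152), while the other 20 were higher there as well. Rest, the repressor of neuronal genes outside neurons and endocrine cells, was 2.84-fold lower in βTC6 cells (3.60 and 3.47 against 9.55 and 10.6, adjusted p = 6.53e-08).

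The largest measured increases, among genes above background and unsaturated on all 4 arrays, were those of Tmem59l, Lgals2, Resp18, St8sia5, Gsdma, Oxtr, Onecut2, Csn3, Adpgk, Vgf, Stmn3 and Six2. Tmem59l, a Golgi membrane protein of brain, was at 109 and 137 in βTC6 cells and 0.432 and 0.370 in pancreas (306-fold, adjusted p = 6.50e-13). Lgals2, a galectin of the gut epithelium, was at 87.2 and 152 against 0.406 and 0.360 (301-fold, adjusted p = 3.62e-11). Oxtr, the oxytocin receptor, was at 30.8 and 24.0 against 0.337 and 0.329 (81.6-fold). The others ranged from 61.8-fold (Six2, a homeobox factor of kidney progenitors) to 92.5-fold (St8sia5, a sialyltransferase that makes gangliosides). Among genes at background on both pancreas arrays, those named by their level in βTC6 cells include Tsnaxip1 (95.0 and 66.0, at least 293-fold), the arginine methyltransferase Prmt8 (46.8 and 43.2, at least 167-fold) and the orphan receptor Gpr158 (43.0 and 45.4, at least 164-fold). The others of this kind were Olfr1463, an olfactory receptor, Fetub, a liver protease inhibitor, Pdyn, the precursor of dynorphins, Xlr, Galnt9, 4930488B01Rik, Car10, Clgn and Atcay, at levels of 7.46 (Clgn) to 36.0 (Pdyn). By ratio, the 2 arrays of Pdyn, at 18.1 and 36.0, stood further apart than those of the other genes named of this kind.

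Exocrine genes made up the other end of the comparison. Of 21 acinar enzymes and secreted products tested, 21 were lower in βTC6 cells, with a median log2 difference of -6.83. Cela3b, an elastase, was at 0.27 on both βTC6 arrays and saturated at 227 on both pancreas arrays (at least 722-fold, adjusted p = 8.53e-14). Cpa1, carboxypeptidase A1, was likewise at background and at 225 and 210, both saturated (at least 692-fold, adjusted p = 3.48e-13). Prss2, an anionic trypsin, was at 0.496 and 0.472 against 66.3 and 70.2 (141-fold, adjusted p = 3.65e-13). In all, 8 of the 21 were at background on both βTC6 arrays, among them Amy2a5, amylase, as were 2416 of all 26169 tested probes. Such genes were tested only because pancreas had them above background, so their direction followed from the filter. Klk1, also listed, was above background in neither group and was not tested. Spink1, the trypsin inhibitor of acinar cells, was at 0.516 and 0.371 against 193 and 178 (423-fold, adjusted p = 1.32e-12). The smallest differences were those of Gp2, a membrane protein of zymogen granules, at 4.21-fold, and Pla2g1b, phospholipase A2, at 5.04-fold, genes that were far brighter in islets (128 and 108, and 247 and 209) than in the fetal pancreas (1.67 and 1.75, and 2.07 and 1.94). Sycn, syncollin, was at 9.17 and 9.06 against 127 and 124 (13.8-fold lower). Other exocrine genes among the largest decreases were Cel, Prss3, Ctrc and Cela2a, by 73.3-fold to 217-fold, and Try5 and Cpb1 were at background in βTC6 cells (at least 411-fold and 326-fold).

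The E-box CACCTG, read on either strand, is part of the site bound by the acinar PTF1 complex, and was searched in the same 250 bases. It was found in 9 of 17 listed acinar genes with an entry and in 19.4% of all 27025 genes of the table. Windows of 5 of the 9 are shown, with the E-box in capitals (CAGGTG is the same element on the other strand).
Cela3b, chr4:137430534-137430593, minus strand: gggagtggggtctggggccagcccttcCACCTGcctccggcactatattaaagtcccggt
Cpb1, chr3:20275795-20275854, minus strand: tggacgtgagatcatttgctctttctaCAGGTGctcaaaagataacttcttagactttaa
Cela1, chr15:100687997-100688056, minus strand: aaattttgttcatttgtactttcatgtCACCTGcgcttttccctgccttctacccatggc
Cel, chr2:28563436-28563495, minus strand: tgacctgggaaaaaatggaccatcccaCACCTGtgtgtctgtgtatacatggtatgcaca
Prss2, chr6:41521580-41521639, plus strand: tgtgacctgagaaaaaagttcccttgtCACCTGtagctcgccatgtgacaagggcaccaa
The element is short and common, and the 8 acinar genes without it in this window were lower in βTC6 cells too.

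Among 13 progenitor and acinar transcription factors, 4 were higher, 7 lower and 2 did not pass. Ptf1a, the DNA-binding subunit of PTF1, was at 1.26 and 0.848 in βTC6 cells and 30.5 and 33.3 in pancreas (30.9-fold lower, adjusted p = 2.18e-10). Nr5a2, a nuclear receptor of acinar genes, was at background against 9.85 and 11.1 (at least 33.3-fold, adjusted p = 3.84e-11). Sox9, which keeps progenitors and ducts, was at background against 7.01 and 6.51 (at least 21.5-fold, adjusted p = 1.18e-09). These factors of progenitors and exocrine cells were low in the line, as were Rbpjl, Gata6 and Onecut1. Related factors went apart. Onecut2 was at 122 and 110 against 1.61 and 1.54 (73.5-fold higher, adjusted p = 2.25e-12), while Onecut1 was at least 3.35-fold lower. Gata4 was at 42.5 and 45.1 against 3.83 and 4.25 (10.8-fold higher, adjusted p = 2.69e-10), while Gata6 was at background against 6.08 and 6.30 (at least 19.7-fold lower). Foxa2, a pioneer factor of endoderm, was 3.28-fold higher, whereas Foxa1 (4.74 and 4.95 against 5.43 and 5.17, adjusted p = 0.235) and Hnf4a (5.55 and 7.14 against 5.74 and 5.59, adjusted p = 0.329) did not pass. Foxa1 passed as lower after quantile normalization (log2 -0.33) and Hnf4a as higher without βTC6 replicate 1 (log2 0.33).

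Of 11 duct genes, 7 were lower in βTC6 cells, none was higher and 4 did not pass. At background on both βTC6 arrays were 4 of the 11, so their direction followed from the filter. Krt19, the keratin of ducts, was at background in βTC6 cells and at 25.8 and 27.9 in pancreas (at least 81.8-fold, adjusted p = 1.94e-12). Muc1, an apical mucin, was at 1.00 and 1.01 against 75.6 and 74.2 (74.5-fold, adjusted p = 1.23e-11). Anxa1 and Tff2 were at background in βTC6 cells and at least 34.8-fold and 7.33-fold lower. Krt7, by contrast, was at 42.0 and 64.5 against 56.9 and 58.0 (adjusted p = 0.442) and passed as lower after quantile normalization (log2 -0.85) and without βTC6 replicate 2 (log2 -0.45). The chloride channel Cftr was at 0.528 and 0.621 against 0.368 and 0.483 (adjusted p = 0.0694) and passed as higher without pancreas replicate 2 (log2 0.64).

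Epithelial adhesion genes were lower in βTC6 cells for 10 of 13, with a median log2 difference of -3.72. Cldn3, a tight junction claudin, was at 1.85 and 1.77 in βTC6 cells and 71.4 and 79.3 in pancreas (41.6-fold, adjusted p = 1.41e-12). Cldn7 was 37.5-fold lower (1.22 and 1.66 against 53.2 and 53.6), and Cldn4 was at background against 10.8 on both arrays (at least 34.3-fold). Dsp, desmoplakin of desmosomes, was at background against 21.0 and 24.2 (at least 71.8-fold, adjusted p = 1.23e-11). Cdh1 and Epcam, which islets also had, were among the lower genes. Cdh1, E-cadherin, was at 3.73 and 4.66 in βTC6 cells, 58.2 and 51.8 in pancreas and 53.8 and 45.5 in islets (13.2-fold lower than in pancreas, adjusted p = 4.92e-10). Epcam was at 5.30 and 7.22, 88.2 and 95.6, and 30.3 and 29.7 (14.8-fold, adjusted p = 2.62e-10). Cdh2, N-cadherin, which β cells also carry, was 6.13-fold higher (8.02 and 7.72 against 1.46 and 1.13, adjusted p = 1.64e-08) and was at 12.8 and 11.7 in islets. Tjp1, the junction scaffold ZO-1, was 1.60-fold higher but did not pass after quantile normalization (log2 -0.0006, adjusted p = 0.996), and Krt8 did not pass (4.78 and 8.08 against 5.21 and 5.12, adjusted p = 0.260), except without βTC6 replicate 1 (log2 0.65).

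**Figure D3:**
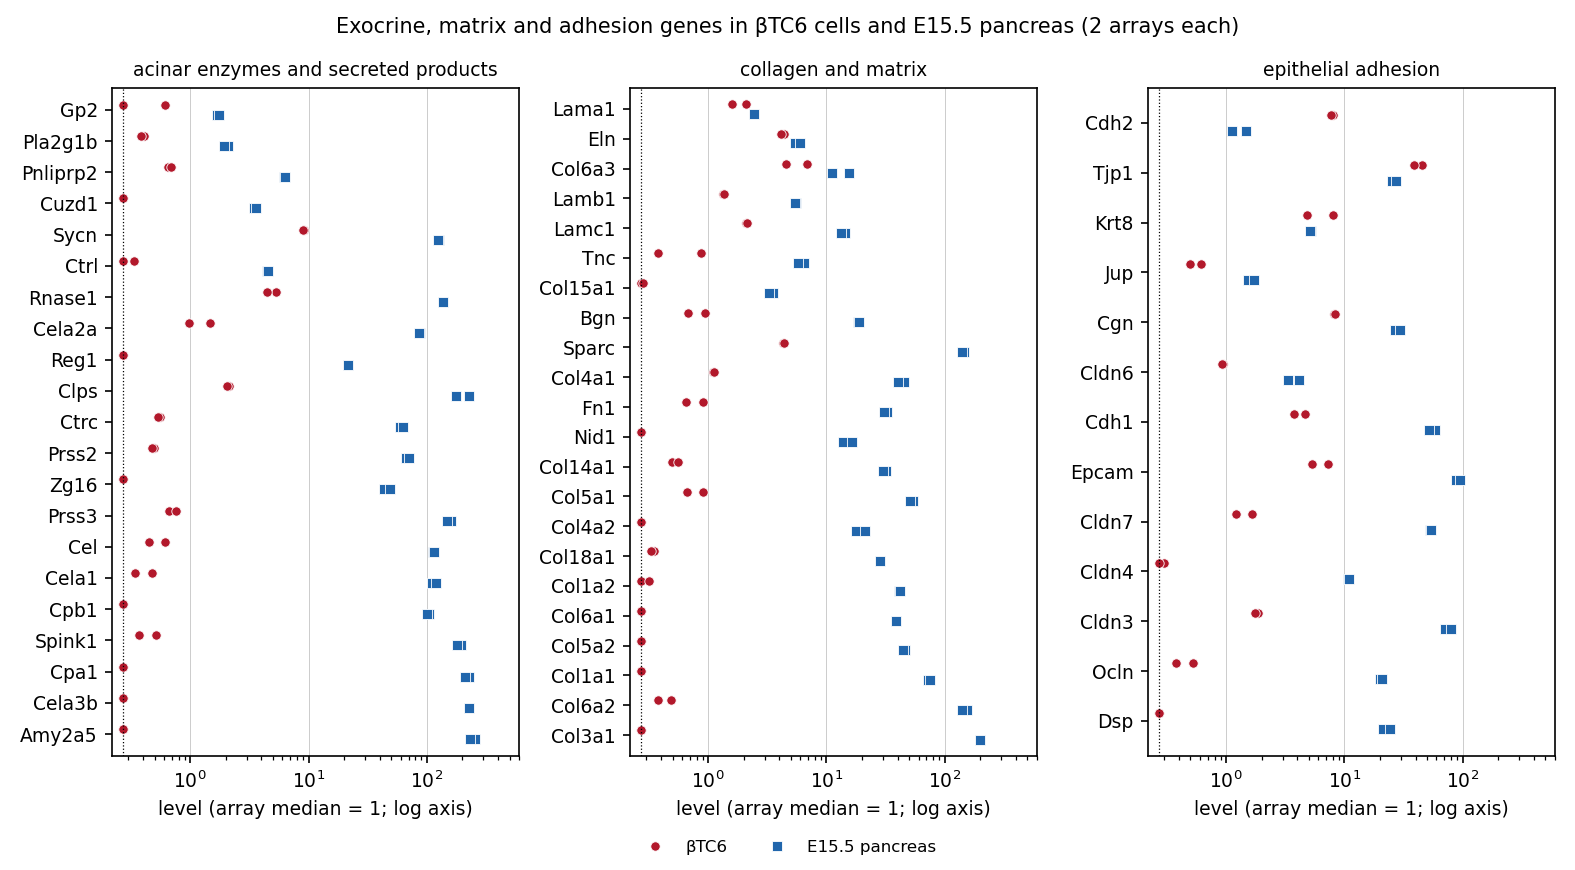
Levels (x axis, log, array median 1) of acinar, matrix and adhesion genes (y axis, ordered by difference) on the 2 βTC6 arrays (red circles) and the 2 E15.5 pancreas arrays (blue squares); the dotted line is the floor of 0.27. All 21 acinar and all 22 matrix genes lie lower in βTC6 cells, and of the adhesion genes Cdh2 and Tjp1 were called higher, Tjp1 not after quantile normalization.

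Matrix genes and most mesenchyme genes were lower in βTC6 cells. Of 22 collagen and matrix genes, 22 were lower in βTC6 cells, with a median log2 difference of -5.58. At background there were 9 of them, which were tested only because pancreas had them above background. Col3a1, fibrillar collagen III, was at background in βTC6 cells and saturated at 197 and 200 in pancreas (at least 631-fold, adjusted p = 2.84e-14). Col1a1 was at background against 72.8 and 74.7 (at least 235-fold, adjusted p = 1.26e-13). Col5a2 and Col6a1 were at background and at least 144-fold and 122-fold lower. Basement membrane genes, which epithelial and endothelial cells also make, followed, with Col4a1 at 1.10 and 1.11 against 44.9 and 40.5 (38.5-fold) and the laminin subunit Lamc1 at 6.50-fold, while Lama1 and Eln differed by 1.34-fold each. Of 22 mesenchyme genes, 19 were lower, none was higher and 3 did not pass (median -1.72). Here 8 of the 22 were at background on both βTC6 arrays, so their direction followed from the filter. Dcn, decorin, was at background against 72.1 and 65.6 (at least 219-fold, adjusted p = 2.64e-13), and Lum and Postn were at background too (at least 65.3-fold and 91.7-fold). Vim, vimentin, was at 2.25 and 2.49 against 83.1 and 86.7 (35.9-fold, adjusted p = 9.89e-13). Nkx3-2, a factor of pancreatic mesenchyme, did not pass (0.912 and 0.653 against 1.06 and 1.01, adjusted p = 0.0516) but did so without βTC6 replicate 1 (log2 -0.67), and Zeb2 (adjusted p = 0.419) passed as lower by the median of its probes (log2 -1.33).

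Most vessel and blood genes and part of the nerve genes were lower in βTC6 cells. At background on both βTC6 arrays were 7 of 14 endothelial, 6 of 12 leukocyte and 2 of 6 erythroid genes. They were tested only because pancreas had them above background, so their direction followed from the filter. Of 14 endothelial genes, 13 were lower and 1 did not pass, with Kdr, the VEGF receptor 2, at 0.375 and 0.542 against 23.7 and 24.3 (53.3-fold, adjusted p = 1.91e-11) and Tie1 at background against 17.2 and 16.5 (at least 53.6-fold). Esam was the member that did not pass (7.72 and 9.71 against 10.4 and 11.1, adjusted p = 0.0741), and it passed as lower after quantile normalization (log2 -0.69) and without βTC6 replicate 2 (log2 -0.48). Of 12 leukocyte genes, 9 were lower, with the complement gene C1qb at background against 15.6 and 15.0 (at least 48.7-fold, adjusted p = 9.21e-12). Lyz2, Tyrobp and Fcer1g of myeloid cells were at background as well. The gene C1qa did not pass (14.6 and 21.7 against 19.8 and 22.8, adjusted p = 0.168), nor did the factor Spi1 (adjusted p = 0.356). C1qa passed as lower after quantile normalization (log2 -0.79), and without βTC6 replicate 2 its log2 difference was -0.54. Of 6 erythroid genes, 4 were lower, among them Alas2 of haem synthesis (0.612 and 0.80 against 40.5 and 40.3, 57.8-fold) and Hba-x, an embryonic globin, at background against 13.0 and 11.2. Of 8 neural crest and Schwann cell genes, 5 were lower and 2 higher. S100b was at background against 12.7 and 13.1 (at least 41.0-fold) and Sox10 was 8.85-fold lower, whereas Phox2a and Foxd3 were 1.56-fold and 1.43-fold higher, and the Foxd3 probe also read 13.1 and 12.0 in islets. Of 4 mesothelial genes, Muc16 was at background in βTC6 cells against 4.43 and 4.04, and Wt1 was called lower (0.672 and 0.326 against 0.733 and 0.879, adjusted p = 0.0478) but lost the call without any 1 of pancreas replicate 1 (adjusted p = 0.0855), pancreas replicate 2 (0.206) or βTC6 replicate 2 (0.434), and with the replicate number as a block (adjusted p = 0.0653).

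Most replication genes were higher in βTC6 cells. Of 19 DNA replication genes, 16 were higher, 1 was lower and 2 did not pass, with a median log2 difference of 1.07. After quantile normalization 10 were higher and 3 lower, with a median of 0.45 against 0.06 for all probes. Prim1, a primase subunit, was at 65.8 and 65.7 against 12.3 and 12.2 (5.38-fold, adjusted p = 8.00e-10). Tk1, thymidine kinase, was at 37.4 and 51.2 against 12.5 and 12.9 (3.44-fold, adjusted p = 2.76e-07). The helicase genes Cdc45 and Mcm5 were 2.52-fold and 2.34-fold higher. In islets these genes were much dimmer, with Mcm5 at 1.79 and 1.67 and Tk1 at 0.486 and 0.488. All 19 were higher in βTC6 cells than in islets, against 42.0% of all probes. Mcm6 was at 30.3 and 27.2 against 27.8 and 27.9 (adjusted p = 0.703) and was called lower after quantile normalization (log2 -0.58). Pola1, the 1 lower gene (1.32-fold, adjusted p = 0.0224), lost the call without pancreas replicate 1, without pancreas replicate 2 or without βTC6 replicate 1. Rrm1 did not pass (0.617 and 0.803 against 0.60 and 0.517, adjusted p = 0.104), except without βTC6 replicate 1 (log2 0.53).

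E2F factors drive many replication genes at the G1 to S transition, and 3 forms of their site, TTTCCCGC, TTTGGCGC and TTTCGCGC, were searched on both strands. At least 1 form was found in the 250 upstream bases of 5 of 16 listed replication genes with an entry and of 1.78% of all 27025 genes. The windows show 3 of the 5 with the site in capitals, and in Mcm5 a pair of overlapping sites on opposite strands is marked as 1 run.
Mcm5, chr8:75109334-75109393, plus strand: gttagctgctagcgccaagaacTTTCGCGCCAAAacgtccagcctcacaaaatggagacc
Mcm7, chr5:138172015-138172074, minus strand: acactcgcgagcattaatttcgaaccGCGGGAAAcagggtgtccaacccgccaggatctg
Cdc6, chr11:98907987-98908046, plus strand: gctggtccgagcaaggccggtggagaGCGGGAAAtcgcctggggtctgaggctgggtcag
The other genes with a site were Mcm6 and Pola1, so the sites fell on genes that were higher, lower and did not pass. E2f1 itself was at 33.3 and 31.7 against 12.4 and 13.9 (2.48-fold higher, adjusted p = 6.78e-07).

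Of 21 cell cycle genes, 15 were higher, 4 lower and 2 did not pass (median 0.83), and 11 were higher and 5 lower after quantile normalization. Cdk1, the mitotic kinase, was at 165 and 183 against 75.4 and 75.7 (2.30-fold, adjusted p = 2.95e-07), and Cdc20, an activator of the anaphase complex, was 2.65-fold higher. Aurka was 4.43-fold higher on its brightest probe, but its probes were called in opposite directions and the call was lost by their median (adjusted p = 0.0521). Mki67, the proliferation antigen, was at 184 and 170 in βTC6 cells, 92.2 and 94.0 in pancreas and 3.12 and 2.72 in islets, and did not differ from pancreas past the threshold after quantile normalization (log2 0.09). The D cyclins differed among themselves. Ccnd1 was at background in βTC6 cells against 4.25 and 4.72 (at least 14.3-fold lower, adjusted p = 5.56e-10), Ccnd3 was 1.94-fold lower on the 1 array that measured it, and Ccnd2 was 1.63-fold higher but did not pass after quantile normalization (log2 -0.03). Cdk4 (82.2 and 100.02 against 89.2 and 99.1, adjusted p = 0.717) and Cdk2 (2.17 and 3.03 against 3.04 and 3.25, adjusted p = 0.130) did not pass. After quantile normalization Cdk4 was called lower (log2 -0.87), and Cdk2 was lower without βTC6 replicate 2 (log2 -0.53).

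**Figure D4:**
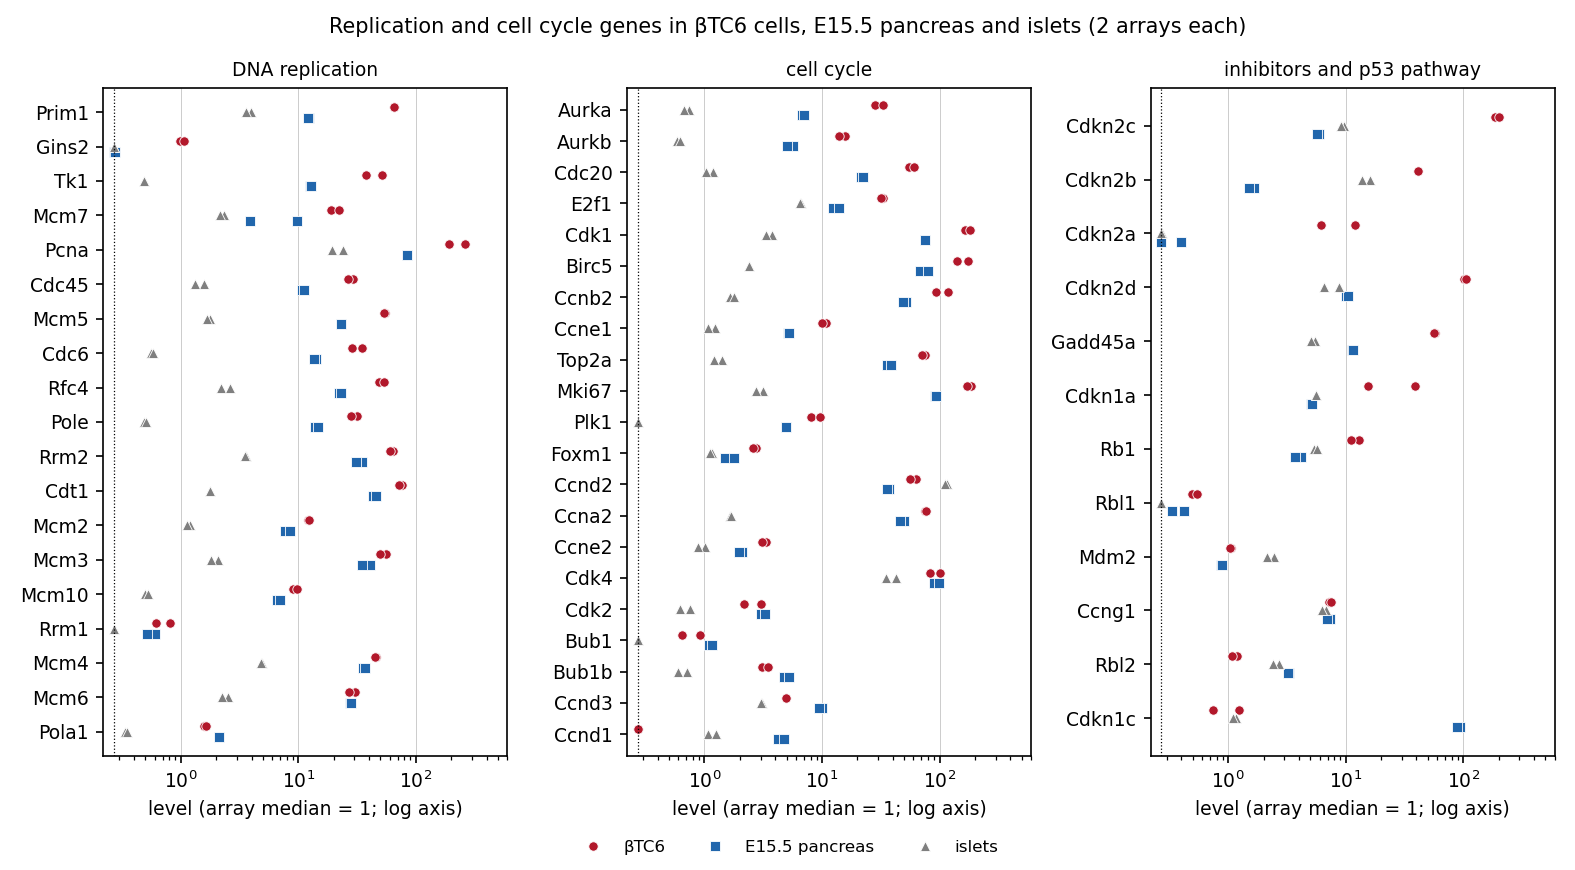
Levels (x axis, log, array median 1) of replication, cell cycle and inhibitor genes (y axis, ordered by the difference of βTC6 from pancreas) on 2 arrays each of βTC6 cells (red circles), E15.5 pancreas (blue squares) and islets (grey triangles); the dotted line is the floor of 0.27. Most replication genes lie higher in βTC6 cells than in pancreas (median log2 difference 1.07), and further above islets (4.13). Cdkn2c and Cdkn2b lie high and Cdkn1c low in βTC6 cells.

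Of 12 genes of the list of cell cycle inhibitors and the p53 pathway, 8 were higher, 2 lower and 2 did not pass, with a median log2 difference of 1.94. All 4 Ink4 genes, whose products block Cdk4 and Cdk6, were called higher, Cdkn2b from 1 βTC6 array. Cdkn2c (p18) was at 188 and 201 against 5.93 and 5.64 (33.6-fold, adjusted p = 3.59e-12). Cdkn2b (p15) was at 41.6 on the 1 βTC6 array that measured it against 1.66 and 1.50 (26.3-fold, adjusted p = 3.73e-10, with the spread taken from the other groups), and Cdkn2d (p19) was at 101 and 106 against 10.1 and 10.4 (10.0-fold, adjusted p = 7.97e-10). Cdkn2a, which encodes p16 and Arf, was at 6.17 and 12.0 against 0.399 and 0.27 (26.2-fold, adjusted p = 3.79e-08), and was at 0.276 and 0.27 in islets. The Cip/Kip genes split. Cdkn1a (p21) was 4.79-fold higher, with βTC6 arrays at 15.4 and 38.9, and Cdkn1c (p57) was at 0.741 and 1.23 against 94.3 and 88.2 (95.5-fold lower, adjusted p = 9.01e-11) and at 1.17 and 1.10 in islets. Rb1 was 3.05-fold higher and Rbl2 2.90-fold lower. Targets of p53 were uneven, with Gadd45a 4.98-fold higher and Mdm2 (1.07 and 1.04 against 0.869 and 0.893, adjusted p = 0.199) and Ccng1 (7.15 and 7.53 against 7.39 and 6.94, adjusted p = 0.763) not past the threshold. Ccng1 was called lower after quantile normalization (log2 -0.28).

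Most of the imprinted growth genes that passed were lower in βTC6 cells. Of 14, 3 were higher, 7 lower and 4 did not pass, and after quantile normalization 1 was higher and 10 lower. H19, the maternally expressed noncoding RNA, was at 3.00 and 2.95 in βTC6 cells and saturated at 234 and 209 in pancreas (at least 74.2-fold lower, adjusted p = 8.02e-13). Igf2, the paternally expressed growth factor next to it, was saturated at 276 and 290 against 171 and 133 (at least 1.88-fold higher, adjusted p = 5.22e-05), did not pass after quantile normalization (log2 0.14, adjusted p = 0.237) and was at 2.58 and 2.90 in islets. Grb10, a growth inhibitor, was at 1.38 and 1.27 against 207 and 189, both saturated (at least 149-fold lower, adjusted p = 3.48e-13), while islets had 43.4 and 40.5. H19, Grb10 and Cdkn1c were the lowest of the list against pancreas, and Cdkn1c was low in islets too. An effect on growth was not tested. Nnat, neuronatin, was 6.82-fold higher (72.5 and 92.6 against 11.8 and 12.3, adjusted p = 2.53e-09). Dlk1 had βTC6 arrays at 52.6 and 116 against 118 and 126 (adjusted p = 0.0575). It passed as lower without βTC6 replicate 2 (log2 -1.21), after quantile normalization (log2 -1.42) and with the replicate number as a block (adjusted p = 0.0396). Plagl1 (8.90 and 8.25 against 8.12 and 7.93, adjusted p = 0.382) was called lower after quantile normalization (log2 -0.26), and the probes of Meg3 were called in opposite directions.

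Genes that β cells normally keep low were not raised as a group in the line when set against the pancreas, with 3 of 15 higher, 9 lower and 3 that did not pass, and with 0 higher and 11 lower after quantile normalization. Mgst1, a microsomal glutathione transferase, was 42.2-fold lower (0.669 and 0.585 against 24.5 and 28.4, adjusted p = 1.54e-11), and Pdgfra, Smoc2 and Zfp36l1 were 37.9-fold, 10.2-fold and 3.96-fold lower. Ldha, lactate dehydrogenase, was at 123 on the 1 βTC6 array that measured it, 143 and 129 in pancreas (adjusted p = 0.497) and 8.70 and 8.51 in islets. It was called lower than in pancreas after quantile normalization (log2 -1.05). Against islets 9 of the 15 were higher in βTC6 cells and 4 lower, where 42.0% of all probes were higher and 26.8% lower. Arap2 (5.06 and 3.83 against 3.67 and 3.78, adjusted p = 0.152) passed as higher without βTC6 replicate 2 (log2 0.44).

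Counts of energy metabolism genes depended on the scaling. Of 18 respiratory chain genes, 15 were higher and 1 lower (median 0.80), but after quantile normalization 6 were higher and 5 lower (median -0.05). Sdhb, of succinate dehydrogenase, was 2.72-fold higher (95.7 and 122 against 41.0 and 38.6, adjusted p = 6.98e-07), and Cox6c, Sdhc and Atp5c1 were 2.17-fold to at least 2.34-fold higher. Uqcrc2 (105 and 98.5 against 96.1 and 98.4, adjusted p = 0.603) was called lower after quantile normalization (log2 -0.74). Atp5a1 (126 and 95.8 against 94.0 and 85.5, adjusted p = 0.0514) was called higher without βTC6 replicate 2 (log2 0.49) and with the replicate number as a block (adjusted p = 0.0376), and lower after quantile normalization (log2 -0.53). Of 12 glycolysis genes, 7 were higher, 1 lower and 4 did not pass, and after quantile normalization 5 were higher and 3 lower. The hexokinase gene Hk2 was 20-fold lower (0.787 and 0.910 against 16.2 and 17.6, adjusted p = 4.38e-11). Pfkp, a phosphofructokinase, was 4.32-fold higher, and Pfkm and Pkm were 2.09-fold and 1.97-fold higher. Pfkl (adjusted p = 0.248) was lower after quantile normalization (log2 -0.72) and without βTC6 replicate 2 (log2 -0.43), and Gapdh was at 0.940 and 0.982 against 0.900 and 0.868 (adjusted p = 0.479).

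Of 18 genes of folding and stress in the endoplasmic reticulum, 12 were higher, 2 lower and 4 did not pass, and 8 were higher and 5 lower after quantile normalization. Ddit3 (CHOP) was at 64.0 and 79.1 against 7.67 and 7.72 (9.25-fold, adjusted p = 2.85e-10), and Trib3, its target, was 8.08-fold higher (7.27 and 9.46 against 1.13 and 0.937). Hspa5 (BiP), the main chaperone of the lumen, was 4.01-fold higher (147 and 149 against 37.3 and 36.5, adjusted p = 9.53e-10), and Atf4, saturated in βTC6 cells, at least 2.44-fold. Xbp1 had βTC6 arrays at 35.1 and 66.2 against 35.2 and 40.5 (adjusted p = 0.183), and Hyou1 an adjusted p of 0.134. Both passed as higher without βTC6 replicate 1 (log2 0.81 and 0.71). Cholesterol synthesis genes were higher for 11 of 14, and for 11 after quantile normalization. Msmo1, Mvk, Cyp51 and Sc5d were 3.50-fold (Sc5d) to 4.11-fold (Msmo1) higher. Dhcr7 (adjusted p = 0.149) was called lower after quantile normalization (log2 -0.41), and Hmgcs1 (1.05 and 1.90 against 1.75 and 1.63, adjusted p = 0.352) was lower without βTC6 replicate 2 (log2 -0.69).

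Antigen presentation and interferon genes were higher for 9 of 10, and for 9 after quantile normalization. Irf7, an interferon-induced regulator, was at 29.0 and 37.0 against 0.993 and 1.13 (30.9-fold, adjusted p = 5.81e-11). H2-D1, a class I heavy chain, was 5.77-fold higher (187 and 222 against 35.4 and 35.2, adjusted p = 2.71e-09), and the immunoproteasome subunit Psmb8 was 5.04-fold higher. Irgm1 was 1.98-fold higher, and Psmb9 did not pass (1.78 and 2.84 against 1.94 and 1.80, adjusted p = 0.358). Against islets only 3 of the 10 were higher in βTC6 cells and 6 were lower, where 42.0% of all probes were higher and 26.8% lower.

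Signalling genes were mostly lower or mixed. Of 19 genes of the Notch pathway, which holds progenitors back from endocrine fate, 3 were higher, 12 lower and 4 did not pass (median -0.67). Notch1 was at 2.65 and 3.09 against 22.7 and 24.7 (8.27-fold lower, adjusted p = 5.12e-10), the target Heyl was 10.3-fold lower and Notch4 3.28-fold lower, while the ligand Jag2 was 4.60-fold higher (11.8 and 11.03 against 2.49 and 2.48). Notch4 lost the call at a floor of 1 (adjusted p = 0.0672), Mfng (adjusted p = 0.0724) passed as lower without pancreas replicate 1 (log2 -0.47), and Notch2 had an adjusted p of 0.232. Of 12 Fgf and Bmp genes 5 were higher and 5 lower. Bmp7 was at background against 47.8 and 44.0 (at least 146-fold lower, adjusted p = 5.18e-13) and Bmp4 at least 7.56-fold lower, while Id3, a target of Bmp signals, was 3.97-fold higher (73.6 and 111 against 22.5 and 22.95). The receptor Fgfr3 was 5.17-fold lower. Fgf10 (adjusted p = 0.0624) and Fgf9 (adjusted p = 0.203) did not pass, but Fgf10 did as lower without pancreas replicate 2, without βTC6 replicate 1 and after quantile normalization (log2 -0.78, -0.67 and -0.57), and Fgf9 without βTC6 replicate 2 (log2 -0.50).

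Of 12 Wnt genes, 3 were higher and 5 lower. Wnt4 was at 44.4 and 61.8 in βTC6 cells, 4.69 and 4.59 in pancreas and 44.1 and 38.9 in islets (11.3-fold higher than in pancreas, adjusted p = 9.19e-10). The secreted inhibitor Sfrp1 was 27.2-fold lower (0.730 and 0.584 against 19.1 and 16.5, adjusted p = 1.83e-11), and Sfrp2 and the receptor Fzd2 were at background in βTC6 cells. Fzd1 (adjusted p = 0.217) and Fzd7 (adjusted p = 0.239) did not pass. Of 7 Hedgehog genes, 3 were lower, with Smo, the signal transducer, at background against 5.52 and 6.36 (at least 18.8-fold, adjusted p = 4.12e-11). The receptor Ptch1 was 2.50-fold higher on the 1 βTC6 array that measured its brightest probe, and the median over its probes went the other way (log2 -0.87, adjusted p = 0.40). Gli1 was 1.34-fold lower, Dhh was at background in βTC6 cells against 0.524 and 0.468, and Hhip and Gli3 did not pass (adjusted p = 0.0564 and 0.389). Hhip passed as lower without βTC6 replicate 2 (log2 -0.41). Of 16 Hox genes, 9 were lower, 2 higher and 5 did not pass, and after quantile normalization 11 were lower and 1 higher. Hoxa5 was at 0.27 and 0.408 against 26.9 and 26.0 (lower, adjusted p = 5.63e-11, by a fitted 79.7-fold that depends on the floor since 1 βTC6 array was above background), and Hoxb6, Hoxd8 and Hoxb2 were 8.17-fold, at least 12.1-fold and at least 7.45-fold lower. Hoxb3 (28.7 and 23.6 against 22.8 and 22.7, adjusted p = 0.185) was called higher without βTC6 replicate 2 (log2 0.33) and lower after quantile normalization (log2 -0.40). Hoxa3 (adjusted p = 0.0505) passed as lower without βTC6 replicate 1 (log2 -0.40) and after quantile normalization (log2 -0.37).

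Genes of liver and intestine, organs that arise from neighbouring endoderm, were uneven. Of 14 liver genes, 4 were higher, 7 lower and 3 did not pass. Rbp4, the retinol carrier, was 4.13-fold higher (204 and 264 against 54.7 and 57.5, adjusted p = 5.17e-08), and Tat, tyrosine aminotransferase, 8.16-fold higher (3.76 and 3.19 against 0.461 and 0.391). Afp, α-fetoprotein, was 24.2-fold lower (0.506 and 0.633 against 14.3 and 13.0, adjusted p = 4.76e-10) and the fibrinogen gene Fgb 8.36-fold lower. Apob (adjusted p = 0.228) and F2 (adjusted p = 0.230) did not pass, and Apob passed as lower at a floor of 0.1 (log2 -0.90). Of 9 intestinal genes, 3 were higher, 2 lower and 4 did not pass. Cdx2, the homeobox factor of the intestine, was at 6.66 and 9.52 in βTC6 cells, 0.617 and 0.536 in pancreas and 0.772 and 1.09 in islets (13.8-fold higher than in pancreas, adjusted p = 1.12e-08). Tff3, a trefoil peptide of goblet cells, was at 38.7 and 54.2 against 2.51 and 2.37 (18.8-fold, adjusted p = 3.18e-08) and at 1.57 and 2.48 in islets. With Cck, Sct and Lgals2 above, these are gut genes that were higher in the line than in pancreas. Other members of the gut hormone and neuropeptide list, Pyy, Gip, Vip, Grp and Penk, were lower. The markers were not uniform, since Fabp1 was at background in βTC6 cells and lost its call at a floor of 1 (adjusted p = 0.0961), Vil1 was 3.06-fold lower, and Krt20 (adjusted p = 0.115) and Cdh17 (adjusted p = 0.129) did not pass.

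The other large decreases belonged to several kinds of gene. Kctd14 was at 0.540 and 0.576 in βTC6 cells and 139 and 129 in pancreas (239-fold, adjusted p = 2.56e-13). Cldn10, a claudin of secretory epithelia, was at 1.02 and 1.09 against 115 and 111 (107-fold), and Mdk, midkine, a heparin-binding growth factor of embryonic tissue, at 0.988 and 1.16 against 117 and 108 (105-fold). Ptn, its relative, was at background against 70.8 and 63.4 (at least 213-fold, adjusted p = 1.75e-13). Ifitm3 and Ang were 106-fold and 102-fold lower. Serpina6, corticosteroid-binding globulin, Serpinh1, the collagen chaperone, and Aldh1a1, a retinaldehyde dehydrogenase, were at background in βTC6 cells on both arrays, and at 161 and 168, 58.3 and 60.3, and 52.7 and 55.6 in pancreas.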

How the data were processed

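Total RNA of βTC6 cells, E15.5 pancreas and islets was hybridised to 1-colour CodeLink arrays, 2 per group. Deposited values are intensity, for which the authors' CodeLink Expression Analysis 4.1.0.29054 software took the spot mean less the local background median and scaled it to the array median over 34967 discovery probes, and 1260 control spots were left out. The GeneSpring step of the methods was not repeated. Contaminated, irregular and masked spots were set missing, and saturated spots kept as bounds. Levels were floored at 0.27 and log2 transformed. All 10 arrays were fitted with limma 3.58.1 in R 4.3.3 (trended and robust eBayes, with residual df 5 and a median prior df of 6.22), with Benjamini-Hochberg adjustment over 26169 probes and 0.05 as threshold. The methods name no test. With 2 arrays against 2 no exact permutation test can pass that threshold, so only the fit across probes was used, and the number of arrays limits the precision.

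Probes were named through the deposited annotation and GRCm38.p6 symbols: 21615 have 1 symbol, 681 several and 12671 none. A gene is reported by the brightest of its probes (mean log2 level over the 10 arrays); of 2143 genes with several tested probes, 258 have probes called in opposite directions. For a bound, the dim group takes on each array the higher of the floor, the lowest level above background and its own value.

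The members, the 35 gene lists and the tests were chosen with earlier results of these data known. Genes named are the 12 largest differences in each direction measured on all 4 arrays, the 12 highest levels in each direction with the other group at background, for each list the 4 smallest adjusted p-values and up to 2 members that did not pass, and all cell type markers. Other genes were chosen after their values were seen. Promoters came from RefSeq (GRCm38.p6). Figures were made with matplotlib 3.10.9. The fit was tested on simulated data. Alternatives were quantile normalization, normexp with quantile normalization, other floors and background filters, the 4 arrays alone, plain eBayes, a replicate block, flagged spots kept, a 2-fold minimum, the median over a gene's probes, and leaving out each array.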

Additional observations from a re-analysis of the deposited data

How the results depend on the processing

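The counts of higher and lower probes stayed within 1.5 times the reported 11668 and 6714 under all alternatives but those that follow. With a 2-fold minimum they were 5789 and 3642, and among probes above background on all 4 arrays 4226 were lower. Leaving out 1 array gave 10411 to 11253 higher and 5919 to 6558 lower probes. Among probes above background on all 4 arrays, 10 acinar and 11 mesenchyme genes were lower, since this filter removes genes at background in βTC6 cells. DNA replication genes were higher for 10 members after quantile normalization, after normexp with quantile normalization and at a 2-fold minimum, and lower for 3, 3 and 0. Leaving out 1 array gave 0 to 1 lower replication genes. After normexp with quantile normalization 9063 probes were higher and 8377 lower.

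Replicate numbers did not pair the arrays: deviations of same-numbered arrays from their group means correlated at -0.0146. With the replicate block 11575 probes were higher and 6647 lower, and of the named genes it changed the calls of Atp5a1, Dlk1 and Wt1.

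Of 238 named genes, 184 kept their call under every alternative run for them. A turn of direction in a gene called neither in the main fit nor in the alternative was not counted as a change, here or below. Direction turned after quantile normalization and after normexp with it for Atp5a1 (-0.53 and -0.52), Ccng1 (-0.28 and -0.26), Gcg (-0.32 and -0.32), Hoxb3 (-0.40 and -0.39), Mcm6 (-0.58 and -0.56), Plagl1 (-0.26 and -0.24) and Uqcrc2 (-0.74 and -0.74), as log2 differences. It also turned for Ptch1 by the median over its probes (-0.87) and for Slc2a2 without βTC6 replicate 2 (-0.40, against 0.47 without replicate 1). The cause was not tested. Low signal limits genes near the floor: Pdx1, Cdh5, Dhh, Ptprc and Wt1 had a difference of 0 at a floor of 1.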
